A study of Mus musculus with 4 samples.

Results

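Hox genes encode homeodomain transcription factors, and their expression was compared between kidneys of mice that model ADPKD (autosomal dominant polycystic kidney disease, in which cysts grow from the tubules) and wild-type (WT) kidneys. The genes described here are all rows of the expression table named Hoxa, Hoxb, Hoxc or Hoxd followed by a number, which gave 35 of 32176 rows. Of these 35 genes, 10 lie in the Hoxa cluster on chromosome 6, 9 in the Hoxb cluster on chromosome 11, 7 in the Hoxc cluster on chromosome 15 and 9 in the Hoxd cluster on chromosome 2. Hoxa13, Hoxb13, Hoxc12 and Hoxc13 were not analysed here.

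RNA of whole kidney was sequenced in 2 WT and 2 ADPKD libraries. Per the labels, the ADPKD mice had the genotype Pkd1fl/fl; Cre/Esr1+, that is, both copies of the polycystin-1 gene Pkd1 flanked by loxP sites and a Cre recombinase that tamoxifen activates, and they model disease of early onset. The WT mice are labelled wildtype, and for both groups the labels name a tamoxifen injection of 10 mg/kg at postnatal day 10. The promoter that drives the Cre and the age at collection are not given in the sources used here. Whether each library is a separate animal is not stated in the labels, so p-values reflect only the spread among these 4 samples, which may be technical.

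The mammalian Hox genes sit in 4 clusters made by duplication, and genes with the same number in different clusters are paralogs. Within a cluster they are transcribed from the same strand and switched on in the order in which they lie, low numbers first and towards the head, high numbers later and towards the tail. Hox proteins bind DNA together with the TALE homeodomain proteins of the Pbx, Meis and Pknox families, Polycomb proteins keep silent Hox genes off, Trithorax proteins keep active ones on, and retinoic acid induces genes of low number. In the mouse kidney the group 11 paralogs are needed in the nephron progenitors of the embryo, the group 10 paralogs in its stroma, and Hoxb7 is known from the ureteric bud and the collecting duct that grows out of it.

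Between 18001308 and 19955120 reads were assigned to genes per library, and a single read on 1 kb of exon equals 0.0501 to 0.0556 FPKM (the reads of a gene relative to its exon length and to the library's assigned reads). Pkd1 itself had 1.97 and 2.12 FPKM in the WT libraries (replicates 1 and 2, the order kept throughout) against 2.48 and 2.08 FPKM in the ADPKD libraries. These values count the whole gene, so they do not check the loss of the part between the loxP sites. ADPKD replicate 2 stood apart from the other 3 libraries in sex-linked RNA, with Xist at 29.6 FPKM and Ddx3y at 0.0482 FPKM. The other 3 libraries had Xist at 0.0121 to 0.0217 FPKM and Ddx3y at 8.46 to 15.1 FPKM. Each change below is a difference in log2(FPKM + 1), ADPKD minus WT, which understates the change of low genes. A gene is said to have risen or fallen at an adjusted p below 0.05 in limma, fitted over the 17001 genes with a mean of at least 0.5 FPKM.

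The summed levels of the Hoxb and Hoxc clusters were higher in both ADPKD libraries than in both WT libraries. Those of the Hoxa and Hoxd clusters overlapped between the groups. Of the 35 Hox genes, 30 passed the filter and were tested, and 4 of them rose, all neighbours in the Hoxb cluster: Hoxb6, Hoxb7, Hoxb8 and Hoxb9. Over all genes tested 9.43% rose, so 4 of 30 is a share near the background. None of the Hox genes fell by limma (0 of 30, against 4.78% of all genes tested). At an unadjusted p below 0.05 in limma 0 were lower, where 1884 of 17001 genes were. By voom 0 were called lower, where 946 of 17001 genes were. At an unadjusted p below 0.05 in either direction there were 11 of 30 Hox genes, against 34.6% of all genes. Both ADPKD libraries were above both WT libraries for 16 of the 30, where 43.6% of all genes had that pattern, and below them for 1, Hoxa7, where the share of all genes was 21%. The median change of the 30 Hox genes was 0.37, and that of all 17001 genes was 0.18. In bulk tissue, fewer cells of a type and less RNA per cell cannot be told apart.

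**Figure D1:**
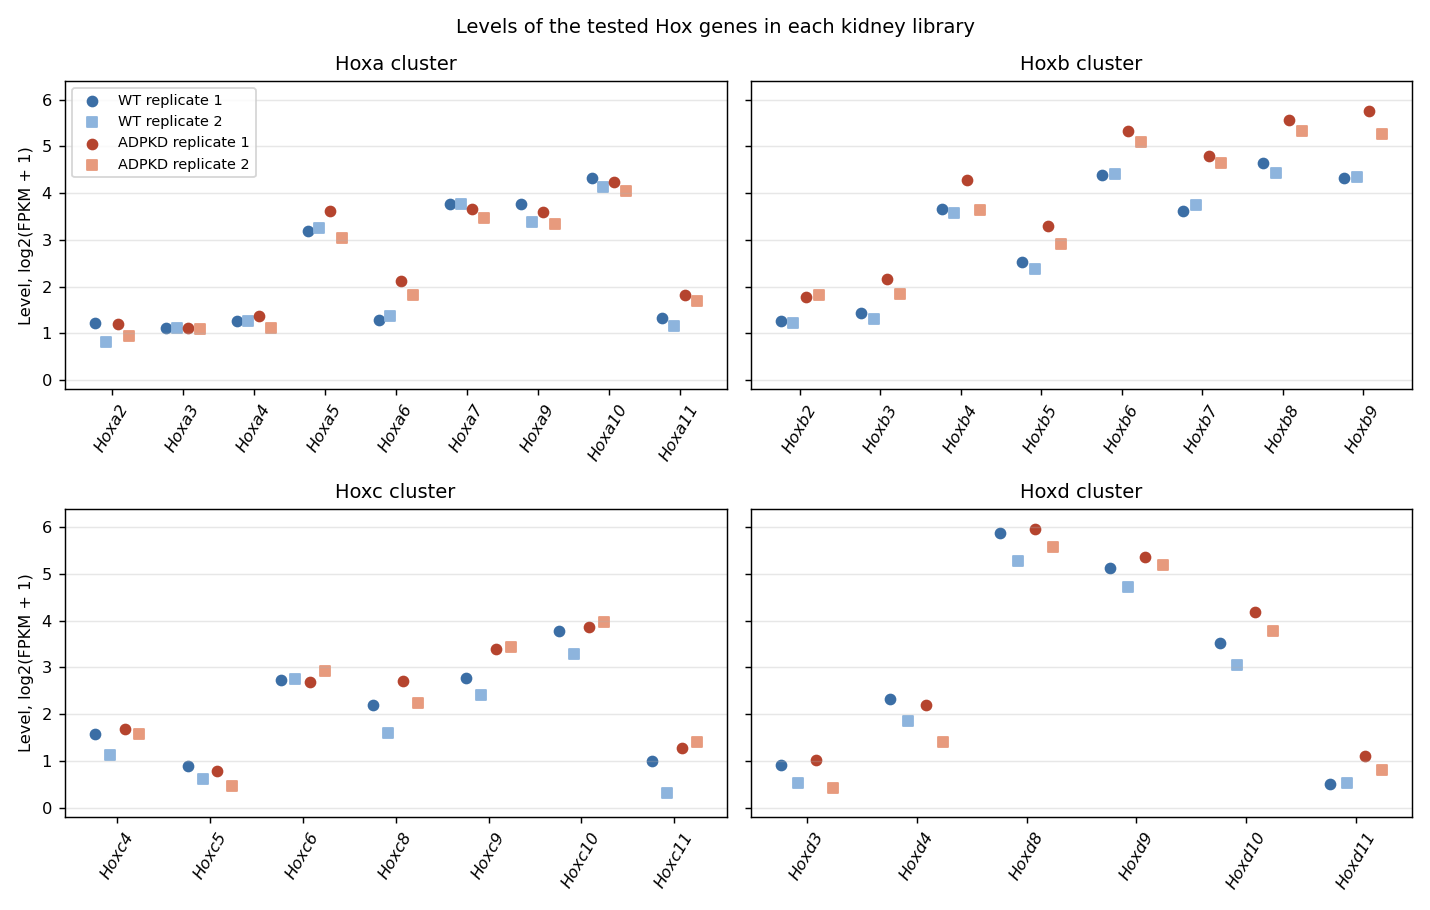
Level of each of the 30 tested Hox genes as log2(FPKM + 1) on the vertical axis, with genes of each cluster in the order of their numbers along the horizontal axis; each symbol is 1 library (circles replicate 1, squares replicate 2, blue WT, red ADPKD). For Hoxb6 to Hoxb9 both ADPKD symbols lie clear above both WT symbols, while for Hoxa9 and Hoxa10 the groups overlap.

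Hoxb9, the Hoxb gene of highest number analysed here and a regulator of thoracic identity along the body axis, had 18.95 and 19.3 FPKM in WT replicates 1 and 2, against 52.9 and 37.7 FPKM in ADPKD replicates 1 and 2. Both ADPKD libraries were far above the WT pair, and ADPKD replicate 1 was the highest. Its difference was 1.18 (SE 0.21, limma adjusted p = 0.0353), and the group means rose from 19.1 ± 0.256 to 45.3 ± 10.8 FPKM (SD, n = 2; limma), a 2.37-fold difference. The gene spans positions 96271457 to 96276595 of chromosome 11 (GRCm38, + strand).

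Hoxb7, the gene whose promoter is used to direct transgenes to the ureteric bud and collecting duct, measured 11.3 and 12.5 FPKM in the WT libraries, against 26.6 and 24.1 FPKM in ADPKD. The groups did not overlap, and replicates lay close together in both. It had the smallest adjusted p of the Hox genes, with a difference of 1.03 (SE 0.15, limma adjusted p = 0.0281). The mean level in ADPKD was 2.13 times that in WT. Hoxb7 spans positions 96286623 to 96290162 of chromosome 11.

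Hoxb8, best known for its role in microglia and grooming behaviour in mice, had 24.1 and 20.6 FPKM in WT and 46.4 and 39.5 FPKM in ADPKD. Hoxb6, a gene of trunk and limb patterning, had 20.1 and 20.3 FPKM in WT and 39.2 and 33.3 FPKM in ADPKD. For both genes the lower ADPKD library was above the higher WT library. The difference was 0.91 for Hoxb8 (SE 0.17, limma adjusted p = 0.0382) and 0.81 for Hoxb6 (SE 0.15, limma adjusted p = 0.0399). Hoxb8 spans 96281905 to 96285315 and Hoxb6 spans 96292476 to 96301569 of the same chromosome. No exon base of Hoxb6, Hoxb7, Hoxb8 or Hoxb9 lay under an exon of another gene, with 0% shared for each, so these 4 values do not depend on the strand of the reads.

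The promoter of Hoxb8 is shown because Hoxb8 was the one gene of the 4 with an entry in the RefSeq promoter table, and that of Hoxd8, its paralog and the highest Hox gene in WT kidney, is shown for comparison and was chosen after its values were seen. Both run 5′ to 3′ from 250 bases before the start of transcription to 50 bases after it, on the + strand of GRCm38.p6, and capitals mark CG dinucleotides. The Hoxb8 window is chr11:96281655-96281954 and the Hoxd8 window is chr2:74704365-74704664.
Hoxb8: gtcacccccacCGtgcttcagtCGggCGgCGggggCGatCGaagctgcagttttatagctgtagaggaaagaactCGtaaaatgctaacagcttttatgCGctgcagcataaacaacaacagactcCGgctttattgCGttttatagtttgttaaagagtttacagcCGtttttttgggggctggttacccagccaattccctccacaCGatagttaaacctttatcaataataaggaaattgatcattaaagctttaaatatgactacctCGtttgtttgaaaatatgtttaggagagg
Hoxd8: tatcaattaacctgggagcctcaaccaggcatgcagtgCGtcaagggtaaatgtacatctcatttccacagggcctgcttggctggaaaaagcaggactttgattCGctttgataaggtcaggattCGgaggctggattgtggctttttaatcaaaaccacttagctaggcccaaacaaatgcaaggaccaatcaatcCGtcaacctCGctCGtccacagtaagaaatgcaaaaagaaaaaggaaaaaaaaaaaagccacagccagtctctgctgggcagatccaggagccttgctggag

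The Hoxb8 window held 13 CG dinucleotides and the Hoxd8 window 6, where the median was 14 over the 23 promoters matched to 21 Hox genes and 7 over all 32851 promoters of the table. The letters TATAAA, searched on both strands, were in the Hoxb8 window and not in the Hoxd8 window. They were in 4 of the 23 Hox promoters (17.4%) and in 13.6% of all promoters. These are descriptions of the sequence and not of binding.

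The other 4 tested Hoxb genes did not pass the test, although 3 of them had both ADPKD libraries above both WT libraries. Hoxb5, which acts in the neural crest that forms the gut's nerves, had 4.72 and 4.23 FPKM in WT and 8.82 and 6.55 FPKM in ADPKD, a difference of 0.65 (SE 0.20, limma adjusted p = 0.0959). Hoxb4, known for expanding blood stem cells, had 11.7 and 10.8 FPKM in WT and 18.5 and 11.5 FPKM in ADPKD. The groups overlapped for Hoxb4 since ADPKD replicate 2 lay between the WT libraries, and its difference of 0.35 (SE 0.25) had an adjusted p of 0.392 in limma.

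Hoxb3 had 1.70 and 1.48 FPKM in WT and 3.46 and 2.61 FPKM in ADPKD, and Hoxb2, a hindbrain segment gene, had 1.42 and 1.34 FPKM in WT and 2.46 and 2.53 FPKM in ADPKD. Their differences were 0.63 and 0.55, with limma adjusted p = 0.0993 and 0.0924. An antisense gene, Hoxb3os, covered 52.9% of the exon length of Hoxb3 and 27.3% of that of Hoxb2, and since the counting used no strand, reads of these overlapping genes cannot be told apart. All 8 tested Hoxb genes had differences above 0 and above the median of all genes, with a cluster median of 0.73. Since the median of all genes was itself 0.18, most genes lay above 0, and their exact share was not computed. Summed over the cluster, Hoxb came to 94.1 and 90.7 FPKM in WT, against 198 and 158 FPKM in ADPKD.

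The 4 calls rested on all 4 libraries. Without WT replicate 1, WT replicate 2, ADPKD replicate 1 or ADPKD replicate 2 in turn, 0 of the 4 genes were called, while 574, 264, 552 and 0 genes were called in the whole table. Their differences then ranged from 0.70 to 1.42 and their limma adjusted p from 0.0755 to 0.152, and without ADPKD replicate 2, the library with Xist, they were 0.92 to 1.42. With the replicate number as a block the calls of Hoxb6 (adjusted p = 0.0554) and Hoxb9 (0.0509) were lost, and with no filter on low values all 4 were (0.0707 to 0.0876). Quantile normalization kept the call of Hoxb7 only, where 5.88% of all genes rose, and median-of-ratios scaling kept Hoxb7 and Hoxb9, where 4.8% did. These scalings moved the median of all genes from 0.18 to -0.012 and -0.0026, and the share of called genes that rose from 66.4% to 47.5% and 45.1%. Relative to the median of all genes, the differences of Hoxb6, Hoxb7, Hoxb8 and Hoxb9 were 0.63, 0.84, 0.73 and 0.998.

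Markers of several cell types also differed between the groups, and their part in the Hoxb differences was not tested. The 7 markers of the collecting duct principal cell, whose lineage is known for Hoxb7, summed to 763 and 606 FPKM in WT and to 627 and 641 FPKM in ADPKD, with 0 of the 6 tested markers called by limma in either direction. Most of this sum was Aqp2, at 475 and 309 FPKM in WT and 361 and 400 FPKM in ADPKD, and it hides opposite moves. Both ADPKD libraries were above both WT libraries for Scnn1b, Scnn1g and Fxyd4, and below them for Aqp3 and Hsd11b2. Avpr2, a marker of that list, was under the filter, with 5 and 3 reads in WT and 3 and 0 reads in ADPKD. Its 0 is within what counting error alone allows. The 5 markers of the intercalated cell, the other cell type of the collecting duct, summed to 132 and 97.2 FPKM in WT and to 73.9 and 36.4 FPKM in ADPKD, and 1 of 5 fell, Slc4a1, from 13.4 and 14.2 FPKM to 1.05 and 0.789 FPKM. The 7 fibroblast markers summed to 59.6 and 62.8 FPKM in WT and to 315 and 224 FPKM in ADPKD, and 5 of 7 rose. Fibroblasts of adult human skin are known to keep Hox expression according to their position in the body.

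The 5 smooth muscle and pericyte markers summed to 33.8 and 23.6 FPKM in WT and to 122 and 113 FPKM in ADPKD, and 2 of 5 rose. Most of the ADPKD sum was Acta2, at 95.9 and 88.5 FPKM, against 17.4 and 11.6 FPKM in WT. Rgs5 of that list went the other way without being called, from 10.3 and 8.22 FPKM to 7.37 and 6.90 FPKM. For Myh11 the groups overlapped. The 5 macrophage markers went from 41.6 and 68.1 FPKM to 486 and 1104 FPKM, the 4 injured tubule markers from 3.62 and 3.92 FPKM to 454 and 494 FPKM, and all members of both lists rose. The 7 proximal tubule markers, of which 4 fell, went from 2301 and 2333 FPKM to 838 and 671 FPKM. Sums were also lower in ADPKD for the 5 thick ascending limb markers (1136 and 1468 FPKM in WT, 619 and 367 FPKM in ADPKD) and the 4 distal convoluted tubule markers (258 and 172 FPKM, 62.0 and 77.6 FPKM), and 2 of each list fell. In each list 1 member was higher in both ADPKD libraries without being called. Cldn16 of the thick ascending limb had 10.7 and 7.34 FPKM in WT and 13.9 and 11.1 FPKM in ADPKD. Trpm6 of the distal convoluted tubule had 2.71 and 2.87 FPKM in WT and 3.38 and 6.75 FPKM in ADPKD. The other members of both lists were lower in both ADPKD libraries. Of the 2 ADPKD libraries, replicate 1 was the higher in each of Hoxb6 to Hoxb9. It was also the higher in the fibroblast, smooth muscle, proximal tubule, thick ascending limb, intercalated cell, proliferating cell and urothelium sums. Whether this order is tied to the Hoxb levels was not tested. The fibroblast markers Pdgfra (3.55 and 6.33 FPKM) and Dcn (21.2 and 22.0 FPKM) were higher in replicate 2. So were the macrophage, injured tubule, distal convoluted tubule, principal cell, podocyte, endothelium and nephron progenitor sums. Of the 4 nephron progenitor markers only Crym passed the filter, with 8.44 and 7.75 FPKM in WT and 6.64 and 9.81 FPKM in ADPKD. Six2, the defining gene of those cells, was at 0 in both WT libraries, and Six2, Cited1 and Eya1 were at most 0.372 FPKM in any library. The 5 urothelium markers, the lining of the renal pelvis, stood further apart within ADPKD (86.0 and 4.26 FPKM) than within WT (33.9 and 23.6 FPKM), with 0 called in either direction by limma.

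**Figure D2:**
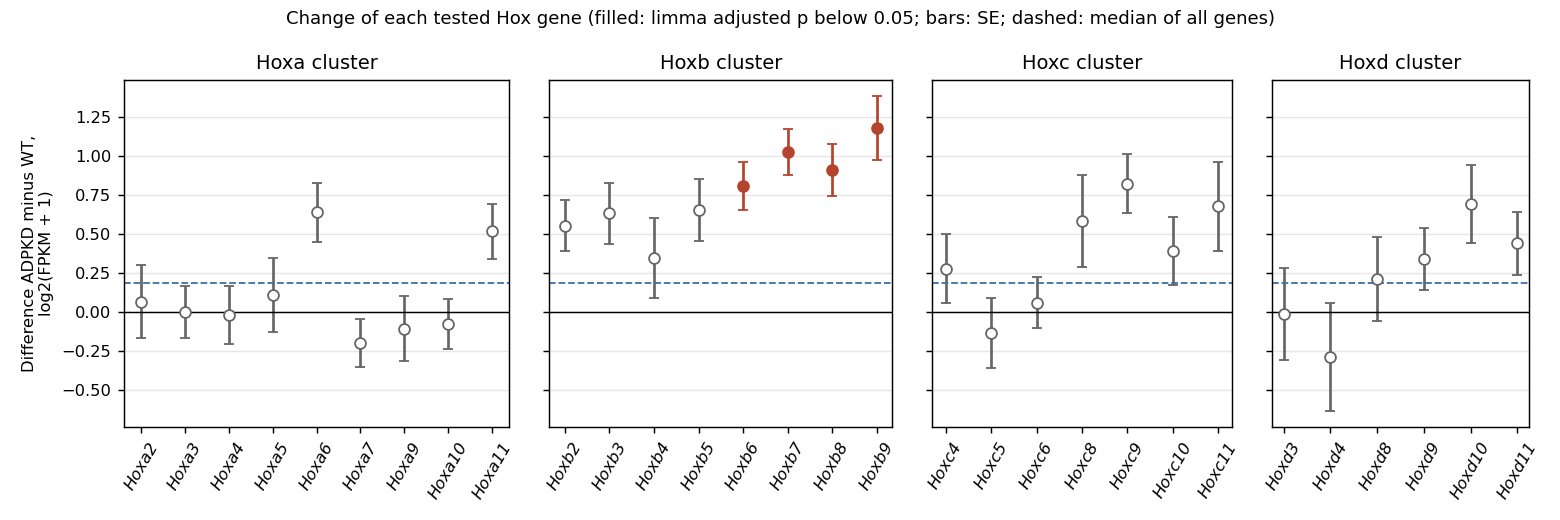
Difference in log2(FPKM + 1) between ADPKD and WT on the vertical axis for each of the 30 tested Hox genes, by cluster; points are limma estimates, bars are 1 SE, filled red points passed an adjusted p below 0.05, and the dashed line is the median of all genes at 0.18. The 4 filled points are Hoxb6 to Hoxb9, between 0.81 and 1.18, and the Hoxa points other than Hoxa6 and Hoxa11 lie between -0.20 and 0.11.

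The 4 Hoxb genes that rose lie side by side. From Hoxb9 to Hoxb6 they fill 30.1 kb, and beyond the 5′ end of Hoxb9 lie other transcripts of the same strand. Gm53, a long noncoding RNA gene at 96251105 to 96264868, had 8.61 and 8.40 FPKM in WT and 15.2 and 14.6 FPKM in ADPKD, a difference of 0.74 (SE 0.14, limma adjusted p = 0.0393). Gm11539, a processed pseudogene at 96248633 to 96249189 whose reads may come from its parent gene, had 151 and 174 FPKM in WT and 279 and 290 FPKM in ADPKD, a difference of 0.81 (SE 0.16, limma adjusted p = 0.0443). For both, the groups did not overlap, and both calls were lost without each of the 4 libraries in turn, where the differences were 0.72 to 0.77 for Gm53 and 0.70 to 0.91 for Gm11539. Both calls were also lost with median-of-ratios scaling (adjusted p = 0.0781 for Gm53 and 0.153 for Gm11539) and with the replicate block (0.0535 and 0.0534), and that of Gm53 with quantile normalization (0.0623). These were the 2 that rose among the 18 tested of 32 other transcripts listed within the spans of the 4 clusters, and 0 fell by limma. Over all genes tested 9.43% rose and 4.78% fell, so 2 of 18 is a share near the background. The stretch from Gm11539 to Hoxb6 covers 52.9 kb.

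Of the 3 tested antisense genes of the cluster, Hoxb5os and Hoxb3os were lower in ADPKD without passing the test, and Gm11536 had overlapping groups and a difference of 0.24 (SE 0.37, limma adjusted p = 0.686). Hoxb5os, which runs opposite to Hoxb6 and Hoxb5 and shares 3.59% of the exon length of Hoxb5, had 35.3 and 26.1 FPKM in WT and 20.5 and 15.4 FPKM in ADPKD. Its difference was -0.74 (SE 0.23, limma adjusted p = 0.103). Hoxb3os had 1.89 and 1.6 FPKM in WT and 0.923 and 0.823 FPKM in ADPKD, a difference of -0.55 (SE 0.18, limma adjusted p = 0.108). Both ADPKD libraries were below both WT libraries for Hoxb5os and for Hoxb3os, and with quantile normalization Hoxb3os was called (adjusted p = 0.0494; 0.0494 to 0.417 over the settings tried).

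**Figure D3:**
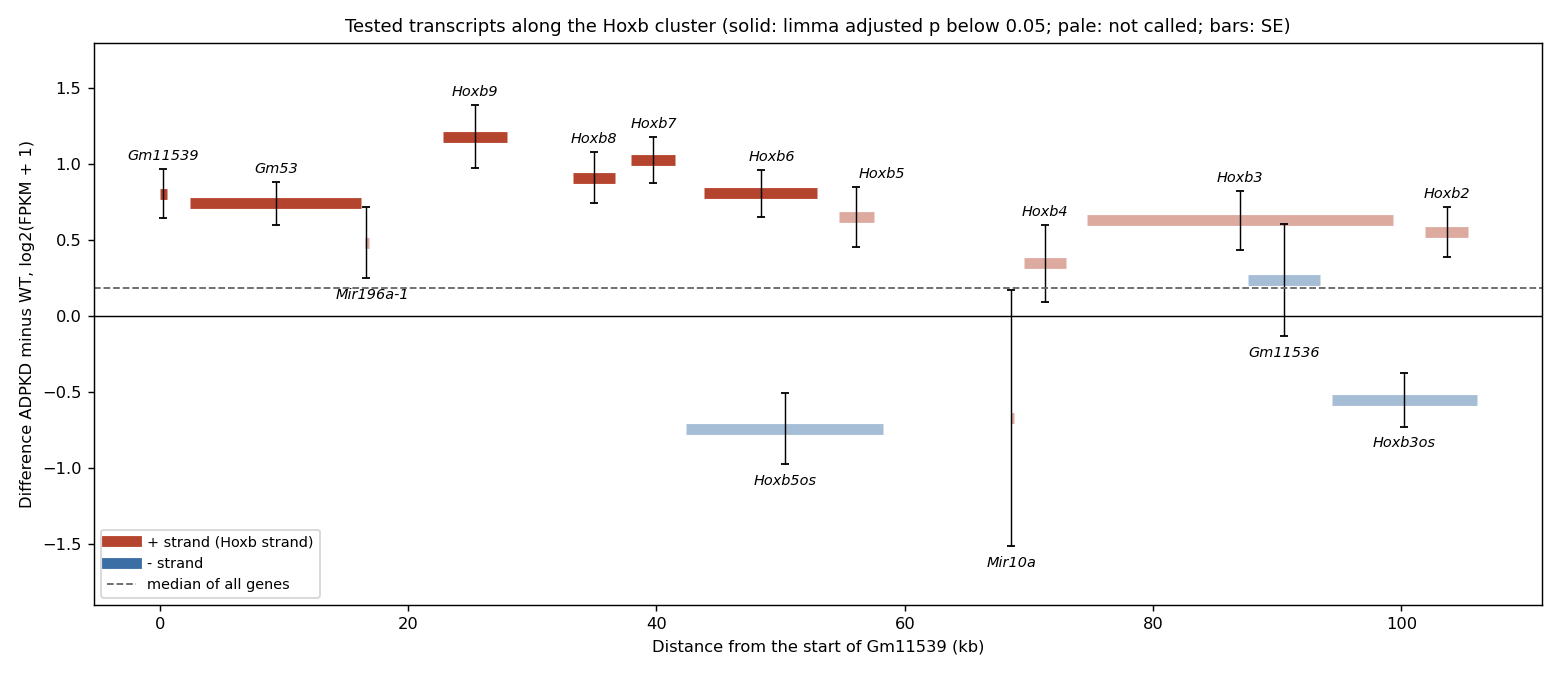
Tested transcripts along the Hoxb cluster, with distance in kb from the start of Gm11539 on the horizontal axis and the difference in log2(FPKM + 1), ADPKD minus WT, on the vertical axis; each horizontal bar is the span of a gene, thin vertical lines are 1 SE, red is the strand of the Hoxb genes, blue the opposite strand, and solid colour marks an adjusted p below 0.05. The 6 solid bars lie in the stretch from Gm11539 to Hoxb6, with the pale Mir196a-1 among them, and Hoxb5os and Hoxb3os lie at -0.74 and -0.55.

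Of the 24 genes tested nearest to the ends of the 4 clusters, 1 rose and 3 fell, where 9.43% of all genes tested rose and 4.78% fell. Ube2z, a ubiquitin-conjugating enzyme gene 129 kb beyond the high-numbered end of the Hoxb cluster, had 20.3 and 21.2 FPKM in WT and 44.0 and 40.3 FPKM in ADPKD, a difference of 0.99 (SE 0.14, limma adjusted p = 0.0278). Its neighbour Atp5g1, which encodes a subunit of the mitochondrial ATP synthase, fell from 93.9 and 88.7 FPKM to 38.9 and 39.5 FPKM, a difference of -1.20 (limma adjusted p = 0.0222). Hibadh near Hoxa and Atp5g3 near Hoxd, both genes of mitochondrial proteins, fell by 1.18 and 0.92 (limma adjusted p = 0.024 and 0.0339). Rpl39-ps near Hoxc, a ribosomal protein pseudogene, had the largest difference of the uncalled flanking genes, -0.94, with 262 FPKM in WT replicate 1 against 56.3 to 68.4 FPKM in the other libraries. Without WT replicate 1 its difference was 0.16.

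Of the 9 Hoxa genes tested, 0 passed the test in either direction by limma or voom, and their median difference was 0.00068. At an unadjusted p below 0.05 there were 2 of 9, against 34.6% of all genes. The summed level of the cluster was 59.4 and 53.5 FPKM in WT and 62.2 and 50.4 FPKM in ADPKD, so that both WT libraries lay between the ADPKD libraries.

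Hoxa10, which patterns the uterus and the lumbar axis, was the highest Hoxa gene, with 18.96 and 16.5 FPKM in WT and 17.8 and 15.6 FPKM in ADPKD. Hoxa9, a regulator of blood cell progenitors, had 12.7 and 9.37 FPKM in WT and 11.035 and 9.16 FPKM in ADPKD. For both genes the groups overlapped, with differences of -0.08 (SE 0.16) and -0.11 (SE 0.21). Hoxa7, a gene of the thoracic axis, had 12.6 FPKM in both WT libraries and 11.7 and 10.02 FPKM in ADPKD. It was the one tested Hox gene with both ADPKD libraries below both WT libraries, and its difference of -0.20 (SE 0.15) had a limma adjusted p of 0.413.

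Hoxa5, a gene of lung and thoracic development, had 8.11 and 8.49 FPKM in WT and 11.3 and 7.21 FPKM in ADPKD, with the WT values between those of ADPKD. Hoxa4 had 1.40 and 1.39 FPKM in WT and 1.59 and 1.16 FPKM in ADPKD. Their differences were 0.11 and -0.02, and Hoxa5 was below 0 under both of the other scalings, quantile normalization (-0.12) and median-of-ratios scaling (-0.11). Hoxa3, needed for the thymus and parathyroid, had 1.17 and 1.15 FPKM in both groups alike. Hoxa2, which sets the identity of a pharyngeal arch, had 1.32 and 0.751 FPKM in WT and 1.31 and 0.932 FPKM in ADPKD. Adjusted p was 0.778 to 0.998 for these 4 genes in limma. Reads per library were 24 to 43 for Hoxa2, 37 to 47 for Hoxa4, 125 to 138 for Hoxa3 and 270 to 393 for Hoxa5.

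The remaining 2 tested Hoxa genes had both ADPKD libraries above both WT libraries. Hoxa6 had 1.43 and 1.59 FPKM in WT and 3.33 and 2.52 FPKM in ADPKD, which was 23 to 54 reads per library, and its difference was 0.64 (SE 0.19, limma adjusted p = 0.0946). Hoxa11, a group 11 gene of the nephron progenitors, had 1.498 and 1.24 FPKM in WT and 2.54 and 2.24 FPKM in ADPKD, a difference of 0.52 (SE 0.18, limma adjusted p = 0.12). Its antisense gene Hoxa11os lay over 34.98% of its exon length, so reads of these genes cannot be told apart either.

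In the Hoxc cluster 0 of 7 genes passed the test by limma or voom, and the median difference was 0.39. At an unadjusted p below 0.05 there was 1 of 7, against 34.6% of all genes. Hoxc9, which gives thoracic motor neurons their identity, had 5.84 and 4.32 FPKM in WT and 9.51 and 9.84 FPKM in ADPKD. Its groups were well apart, and its difference of 0.82 (SE 0.19) had a limma adjusted p of 0.0562, which was 0.0492 with a filter at a mean of 1 FPKM, 0.0497 with limma's robust prior and 0.0492 to 0.249 over the settings tried. Hoxc10, a gene of the lumbar axis and hind limb, had 12.8 and 8.73 FPKM in WT and 13.7 and 14.8 FPKM in ADPKD. Its WT libraries were further apart than its ADPKD libraries, and its difference of 0.39 (SE 0.22) had a limma adjusted p of 0.273.

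Hoxc8, a gene of brachial motor neurons, had 3.57 and 2.02 FPKM in WT and 5.54 and 3.75 FPKM in ADPKD. Hoxc11 had 0.996 and 0.247 FPKM in WT, the latter from 9 reads, and 1.41 and 1.64 FPKM in ADPKD. In both genes WT replicate 2 was the lowest library, the groups did not overlap, and the differences were 0.58 (SE 0.29) and 0.68 (SE 0.29), with limma adjusted p = 0.235 and 0.177. Hoxc6 had 5.67 and 5.77 FPKM in WT and 5.48 and 6.58 FPKM in ADPKD. Hoxc4 had 1.99 and 1.19 FPKM in WT and 2.22 and 1.99 FPKM in ADPKD. Hoxc5, which shares 5.37% of its exon length with Hoxc10, had 0.863 and 0.540 FPKM in WT and 0.732 and 0.373 FPKM in ADPKD. For these 3 the groups overlapped, and the summed Hoxc level was 31.7 and 22.8 FPKM in WT and 38.6 and 38.9 FPKM in ADPKD.

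The Hoxd cluster held the highest Hox genes of the WT kidney, and 0 of its 6 tested genes passed the test by limma or voom. At an unadjusted p below 0.05 there was 1 of 6, against 34.6% of all genes, and the median difference was 0.28. Hoxd8 had 57.4 and 37.5 FPKM in WT and 61.6 and 47.1 FPKM in ADPKD. Hoxd9 had 34.2 and 25.6 FPKM in WT and 40.3 and 35.4 FPKM in ADPKD. In each group replicate 1 was the higher library for both genes, and the groups overlapped for Hoxd8 but not for Hoxd9, whose difference was 0.34 (SE 0.20, limma adjusted p = 0.292). Hoxd10, a gene of the lumbar spinal cord and hind limb, had 10.5 and 7.28 FPKM in WT and 17.2 and 12.7 FPKM in ADPKD, the largest difference of the cluster at 0.69 (SE 0.25, limma adjusted p = 0.132).

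Hoxd11, a group 11 gene, had 0.413 and 0.435 FPKM in WT and 1.15 and 0.738 FPKM in ADPKD, with the groups apart and a difference of 0.44 (SE 0.20, limma adjusted p = 0.205). Hoxd4 had 4.004 and 2.62 FPKM in WT and 3.60 and 1.63 FPKM in ADPKD, and Hoxd3 had 0.895 and 0.451 FPKM in WT and 1.03 and 0.335 FPKM in ADPKD. Their groups overlapped, and 52.3% and 62.8% of their exon lengths lay under exons of other genes, including each other. Summed over the cluster, Hoxd came to 107 and 73.9 FPKM in WT, against 125 and 98.025 FPKM in ADPKD. All 3 group 11 genes, from Hoxa, Hoxc and Hoxd, had both ADPKD libraries above both WT libraries, as did 43.6% of all genes. Together they summed to 2.91 and 1.92 FPKM in WT and to 5.11 and 4.61 FPKM in ADPKD, with 0 of 3 called by limma or voom. At an unadjusted p below 0.05 there was 1 of 3, Hoxa11, against 34.6% of all genes.

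Among the Hox genes under the filter, Hoxb1, Hoxd1, Hoxd12 and Hoxd13 had 0 to 0.0868 FPKM and 0 to 3 reads in a library. Hoxd12 and Hoxd13 are the Hoxd genes of highest number. In a library with 0 reads of one of these genes, counting error alone allows up to 3 reads, which equals 0.0605 to 0.0895 FPKM for their exon lengths.

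In WT kidney the order of mean levels ran from Hoxd8 (47.5 ± 14.04 FPKM, SD, n = 2) over Hoxd9 (29.9 ± 6.12), Hoxb8 (22.4 ± 2.47), Hoxb6 (20.2 ± 0.183), Hoxb9 (19.1 ± 0.256), Hoxa10 (17.7 ± 1.74) and Hoxa7 (12.6 ± 0.0263) to Hoxb7 (11.9 ± 0.833). The ranges of the WT libraries did not overlap between neighbours in that order down to Hoxb7, other than Hoxb9 and Hoxa10. From Hoxb7 over Hoxb4, Hoxa9, Hoxc10 and Hoxd10 to Hoxa5, each gene's WT range overlapped that of the next. Groups 6 to 10 held every Hox gene with a WT mean above that of Hoxb4.

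Levels of paralogs within 1 library do not depend on how libraries are scaled against each other. The summed Hoxb level was 1.58 and 1.70 times the summed Hoxa level in the WT libraries and 3.19 and 3.13 times in the ADPKD libraries. The groups did not overlap for this ratio, and the exact two-sided permutation p was 0.333, the smallest that 2 against 2 libraries can give. Against the summed Hoxc level the ratio went from 2.97 and 3.97 to 5.14 and 4.05, and against Hoxd from 0.875 and 1.23 to 1.59 and 1.61.

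Among 16 pairs of a tested Hoxb gene and a tested paralog, the Hoxb share was higher in both ADPKD libraries than in both WT libraries for 12, lower for 0 and overlapping for 4. Hoxb7 relative to Hoxa7 went from 0.901 and 0.991 in WT to 2.27 and 2.41 in ADPKD, so that the more abundant of the pair changed. Hoxb9 relative to Hoxa9 went from 1.49 and 2.06 to 4.79 and 4.11, and relative to Hoxd9 from 0.554 and 0.756 to 1.31 and 1.06. The 4 overlapping pairs were Hoxb4 with Hoxc4, Hoxb6 with Hoxa6, Hoxb8 with Hoxc8 and Hoxb9 with Hoxc9. Pairs share genes and libraries, and of the 19 ratios computed none can reach an exact permutation p below 0.333. Both ADPKD libraries were already above both WT libraries for 7 of the 8 tested Hoxb genes, where 43.6% of all genes had that pattern. The ratios reuse those values and add no separate support, and the share over other gene pairs was not computed.

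**Figure D4:**
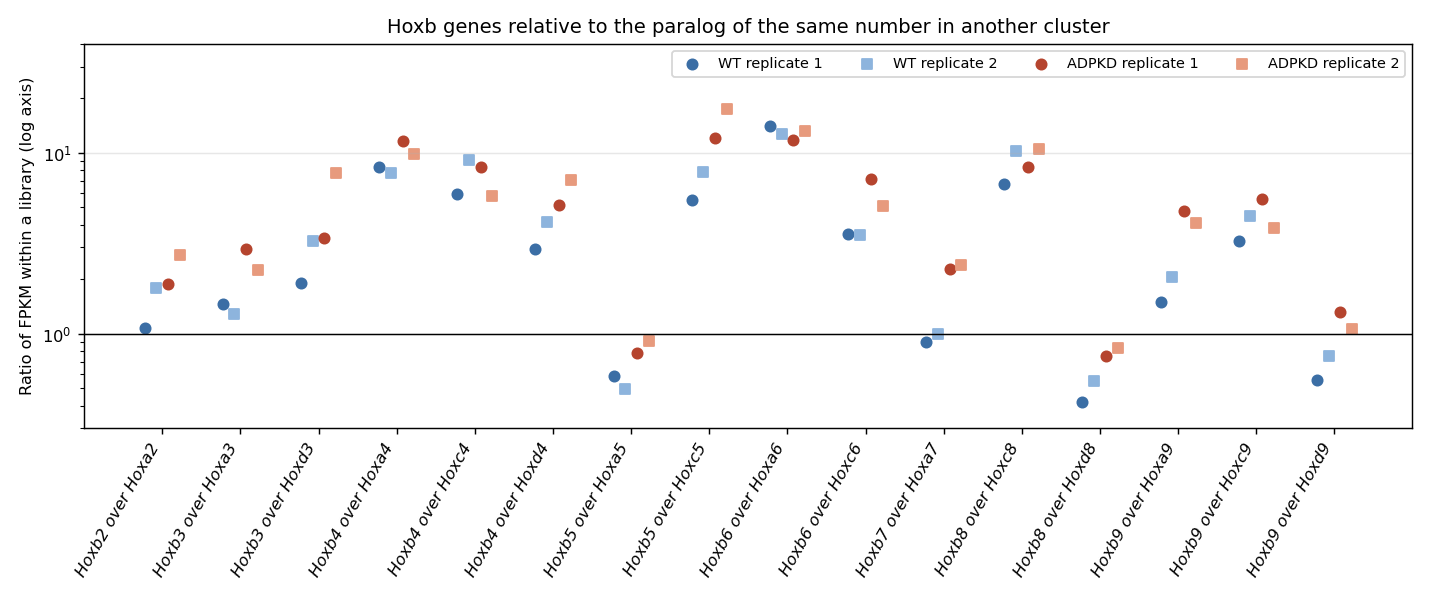
Ratio of the FPKM of a Hoxb gene to that of its paralog of the same number, on a log axis, for the 16 pairs of tested genes; each symbol is 1 library (circles replicate 1, squares replicate 2, blue WT, red ADPKD). For Hoxb7 over Hoxa7 the WT libraries lie just below 1 and the ADPKD libraries at 2.27 and 2.41, and the symbols of the groups mix for Hoxb6 over Hoxa6.

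The Hox clusters also carry microRNA genes, whose seed (bases 2 to 8) pairs with messenger RNAs. In mouse embryos miR-196 is known to direct cleavage of the Hoxb8 messenger RNA, so the mature sequences that fall into the miR-196 and miR-10 families are shown 5′ to 3′ with the seed in capitals, from RefSeq on GRCm38.p6.
miR-196a-5p: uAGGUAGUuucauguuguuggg
miR-196b-5p: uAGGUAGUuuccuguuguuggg
miR-10a-5p: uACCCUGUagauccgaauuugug
miR-10b-5p: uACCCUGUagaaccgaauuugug

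Each pair shares its seed and differs at 1 base counted from the 5′ end, A12C from miR-196a-5p to miR-196b-5p and U12A from miR-10a-5p to miR-10b-5p. Mir196a-1 lies between Gm53 and Hoxb9 at chr11:96265187-96265208, Mir196a-2 in the Hoxc cluster, Mir196b in Hoxa, Mir10a between Hoxb5 and Hoxb4, and Mir10b in Hoxd. Mature miRNAs were not measured, since the RNA was selected with oligo dT. Reads over the Mir196a-1 hairpin gave 20.8 and 18.0 FPKM in WT and 33.3 and 22.6 FPKM in ADPKD, from 33 to 63 reads, and its difference of 0.48 (SE 0.23) had a limma adjusted p of 0.22. Mir10a had 0 to 8 reads per library.

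The 3′ untranslated region of Hoxb8 (GENCODE M21) held a stretch at chr11:96284888-96284909 in which all 22 bases of miR-196a-5p can pair, 21 by Watson-Crick and 1 by a G:U pair. Of 20900 genes, 2 held such a stretch, Hoxb8 and Rps6ka2. The stretch of Hoxb8 and, for comparison, the miR-196 seed matches of the other 2 genes that rose and hold one are shown 5′ to 3′ on the + strand, with the bases opposite the seed in capitals.
Hoxb8: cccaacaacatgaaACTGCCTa
Hoxb6: tggaaggagcacatACTACCTa
Hoxb7: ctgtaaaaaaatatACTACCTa

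The perfect seed match of miR-196, ACTACCT, was in the 3′ untranslated regions of 9 of 35 Hox genes (25.7%) and of 6.10% of 21007 genes, with median lengths of 960 and 961 bases. Among them were Hoxa4, Hoxa5, Hoxa7, Hoxa9, Hoxb6, Hoxb7 and Hoxc8, the members that were also tested. The match of miR-10, ACAGGGT, was in 4 of 35 Hox genes (11.4%) and in 12.5% of all. The 7 tested Hox genes with the miR-196 match had a median difference of 0.11, between -0.20 for Hoxa7 and 1.03 for Hoxb7, and the 23 without it had a median of 0.39. Of the 4 Hox genes that rose, 2 held the match and 2 did not. Hoxb8 counts among those without it, because the G:U pair of its stretch shown above lies within the seed. These are matches of letters and say nothing of whether the miRNA acts there.

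The TALE cofactors with which Hox proteins bind DNA did not pass the test. Of 9 tested, 0 were called by limma, where 9.43% of all genes rose and 4.78% fell. By voom 0 were called, where 2091 of 17001 genes rose and 946 fell. At an unadjusted p below 0.05 there were 3 of 9, all 3 higher, a share near the 34.6% of all genes, and the median difference was 0.34. The largest was that of Meis3, which had 0.549 and 0.823 FPKM in WT and 2.44 and 1.48 FPKM in ADPKD, a difference of 0.80 (SE 0.24, limma adjusted p = 0.0967). Of 14 genes that act with Hox11 proteins or in the same steps of kidney formation 6 were tested. Among these 6, 0 were called by either tool and 0 were at an unadjusted p below 0.05, against 34.6% of all genes. Osr1, an early nephron progenitor gene, had 1.21 and 0.941 FPKM in WT and 0.574 and 0.388 FPKM in ADPKD, a difference of -0.49 (SE 0.19, limma adjusted p = 0.16).

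Polycomb genes, whose products silence Hox clusters, included 5 of 17 that rose and 0 that fell by limma and by voom. Among all genes tested 9.43% rose by limma and 2091 of 17001 by voom. At an unadjusted p below 0.05 there were 7 of 17 (0 of them lower), against 34.6% of all genes, and the median difference was 0.41. Phc2 had 8.76 and 9.41 FPKM in WT and 18.6 and 18.5 FPKM in ADPKD, a difference of 0.95 (SE 0.14, limma adjusted p = 0.0283). Cbx7, a reader of the Polycomb histone mark, had 5.02 and 5.07 FPKM in WT and 9.60 and 12.04 FPKM in ADPKD, a difference of 0.96 (SE 0.17, limma adjusted p = 0.0368). Ezh1, a methyltransferase that writes the mark, and Pcgf2 rose by 0.84 and 0.81, and Cbx6, named to complete the count after its values were seen, rose by 0.82. With median-of-ratios scaling 0 of these 5 were called, with quantile normalization 1, with the replicate block 1, and without each library in turn 0. Rnf2, the ubiquitin ligase of the complex, had 7.04 and 4.33 FPKM in WT and 11.3 and 8.80 FPKM in ADPKD, and its difference of 0.75 had a limma adjusted p of 0.13.

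Of 9 Trithorax and histone demethylase genes, 0 were called by limma and 1 rose by voom, where 2091 of 17001 genes rose by voom. At an unadjusted p below 0.05 there were 2 of 9, against 34.6% of all genes, and the median difference was 0.39. Kdm6a, an X-linked demethylase that removes the Polycomb mark, had the largest difference, with 2.32 and 2.40 FPKM in WT and 3.42 and 5.11 FPKM in ADPKD. ADPKD replicate 2, the library with Xist, was the highest. Its difference was 0.63 (SE 0.22, limma adjusted p = 0.125), and 0.40 without that library.

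Genes of retinoic acid, which induces Hox genes in the embryo, included 4 of 12 tested that rose and 1 that fell, against 9.43% and 4.78% of all genes. Aldh1a2, which makes retinoic acid in the embryo, had 1.99 and 0.761 FPKM in WT and 14.6 and 14.2 FPKM in ADPKD, a difference of 2.74 (SE 0.29, limma adjusted p = 0.0207). Aldh1a1, another enzyme of its synthesis, had 1.12 and 1.36 FPKM in WT and 6.27 and 9.49 FPKM in ADPKD, a difference of 1.96 (SE 0.24, limma adjusted p = 0.0231). The receptor gene Rarg, named to complete the count after its values were seen, rose by 0.91 (limma adjusted p = 0.0474). Cyp26b1, which breaks retinoic acid down, fell from 1.41 and 2.41 FPKM to 0.211 and 0.300 FPKM, a difference of -1.19 (SE 0.24, limma adjusted p = 0.0443). Cyp26a1 and Aldh1a3, named after their values were seen, went against these directions without being called. Cyp26a1 had 0.302 and 0.308 FPKM in WT and 0.435 and 2.15 FPKM in ADPKD, a difference of 0.70 (SE 0.41, limma adjusted p = 0.297). Aldh1a3 had overlapping groups and a difference of -0.49 (SE 0.91, limma adjusted p = 0.736). Without each library in turn 0 or 1 of the 4 rises was called, and the call of Cyp26b1 was lost in all 4 cases, under both other scalings and with the replicate block (adjusted p = 0.0519). Stra6, the retinol uptake receptor, had the largest uncalled difference, 0.95 (SE 0.38, limma adjusted p = 0.158).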

How the data were processed

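The authors deposited FPKM per gene for 2 WT and 2 ADPKD whole-kidney libraries, made from oligo dT-selected RNA per the labels' protocols. Bowtie2, DESeq2 and mm10 are named in the submitters' processing notes, without roles or versions. Per the file headers, exon reads were counted per gene name with featureCounts 1.6.0 on the Ensembl annotation of GRCm38 (release 98), with multiply aligned reads included and without a strand or paired-end option. Positions and exon lengths came from that deposited table, and its 16 further columns of per-sample values were not used. Of these, 8 hold counts and are named for 4 libraries per group, against the 2 per group analysed here, and their names could not be matched to these samples. The other 8 have no name. Genes with near-identical copies, such as pseudogenes, can share reads.

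FPKM times exon length gave whole multiples of 1 read for 100% of values, within 0.01 reads, from which depth and reads per gene were recovered. Of 32176 rows, 25 with names turned into dates (0.118% to 0.151% of reads) were left out, leaving 32151 genes. Values were tested as log2(FPKM + 1) for the 17001 genes with a mean of at least 0.5 FPKM with limma 3.58.1 in R 4.3.3, two-sided, with an intensity trend (2 residual degrees of freedom, prior 2.55) and Benjamini-Hochberg adjustment over all of them. The code was tested on simulated data. Read floors cover counting error only.

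Every Hox gene is a member. Some genes are not reported here. The Hox genes tested are named with their values, as are the called members of each companion list and of the flanking genes (at most 4, smallest adjusted p first), the uncalled member with the largest difference, and transcripts within the clusters. The members, the lists and the marker genes were chosen with earlier results of these data known. Homeodomain sequences were not used here. Alternatives covered the pseudocount, the filter, the scaling, the prior, the replicate block, each library left out, and voom on recovered reads. Promoters and miRNAs came from RefSeq (GRCm38.p6). For 3′ untranslated regions the longest of each gene in GENCODE M21 was taken, and a pairing counted A:U, G:C and G:U without gaps.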

Additional observations from a re-analysis of the deposited data

How the results depend on the processing

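The same 4 Hox genes were called at a pseudocount of 0.1 and by voom on recovered reads, the latter an alternative chosen after seeing the data, and Hoxc9 was added with a filter at a mean of 1 FPKM and with the robust prior. The number of Hox genes that rose was 0 with no filter (1 gene of 32151 called), 1 with quantile normalization, 2 with median-of-ratios scaling and 2 with the replicate block (Hoxb7 and Hoxb8). Without each library in turn it was 0, with 0 to 574 genes called in all, where a lone library was assumed to vary like the other group. The number of Hox genes that fell was 0 under every setting tried, and the differences of Hoxb6, Hoxb7, Hoxb8 and Hoxb9 stayed above 0 under every setting tried. Whether the replicate numbers pair the samples is undecided, since the labels do not say and 2 pairs are too few to show it: deviations of the same number correlated at 0.188 and of the other number at -0.188 over 17001 genes.

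Of the other lists, no filter gave 0 Polycomb rises, 0 retinoic acid rises and 0 falls, 0 rises within the cluster spans, and 0 rises and 0 falls among flanking genes. Quantile normalization gave 1 Polycomb rise, 0 retinoic acid falls, and 1 rise and 1 fall (Hoxb3os) within the spans, and median-of-ratios scaling gave 0, 0 and 0 rises there. The replicate block gave 1 Polycomb rise, 0 retinoic acid falls and 0 rises within the spans. A filter at a mean of 1 FPKM gave 0 retinoic acid falls and 2 flanking rises, and voom gave 2 flanking rises and 1 Trithorax rise. Without each library in turn there were 0 Polycomb rises, 0 to 1 retinoic acid rises, 0 falls, 0 rises within the spans, and 0 flanking rises and 0 to 1 falls.

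Differences changed sign with quantile normalization and median-of-ratios scaling for Hoxa2 (-0.098, -0.059), Hoxa3 (-0.18, -0.13), Hoxa5 (-0.12, -0.11), Hoxc6 (-0.20, -0.15), Gm15050 (-0.11, -0.054), Haglr (-0.071, -0.032), Hoxaas3 (-0.080, -0.024), Hoxd3os1 (-0.15, -0.066) and Pkd1 (-0.14, -0.063), and with the latter for Hoxd8 (-0.029). Without each library in turn the differences that changed sign ranged from -0.14 to 0.27 for Hoxa2, -0.0072 to 0.0085 for Hoxa3, -0.15 to 0.11 for Hoxa4, -0.18 to 0.40 for Hoxa5, -0.31 to 0.093 for Hoxa9, -0.17 to 0.016 for Hoxa10, -0.30 to 0.033 for Hoxc5, -0.052 to 0.17 for Hoxc6, -0.31 to 0.29 for Hoxd3, -0.69 to 0.11 for Hoxd4 and -0.090 to 0.51 for Hoxd8. For other transcripts they ranged from -0.26 to 0.73 for Gm11536, -0.11 to 0.31 for Gm15050, -0.16 to 0.32 for Haglr, -0.040 to 0.26 for Hoxd3os1, -1.82 to 0.48 for Mir10a and -2.04 to 0.16 for Rpl39-ps. None of these genes was called with all 4 libraries, and the cause was not tested.

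With 2 libraries per group and 2 residual degrees of freedom, calls near the threshold depend on the filter and on every library. The edgeR and DESeq2 fits listed as alternatives were not run, because the values matched to these 4 libraries are FPKM. Reads recovered from them were tested with voom in their place.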

Other observations

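The other tested transcripts within the spans of the clusters, apart from those of Hoxb, were 11 noncoding or microRNA genes, and 0 of them were called by limma. In the Hoxa cluster Hotairm1, a noncoding RNA gene, had 2.92 and 3.96 FPKM in WT and 3.84 and 9.24 FPKM in ADPKD, with overlapping groups. Gm27477, a short RNA gene beside Hoxa2, had 12.9 and 15.9 FPKM in WT against 24.9 and 22.4 FPKM in ADPKD, from 34 to 66 reads, a difference of 0.68 (SE 0.17, limma adjusted p = 0.0678). Gm27861 and Hoxa11os also had both ADPKD libraries above both WT libraries, with differences of 0.42 and 0.31 (limma adjusted p = 0.269 and 0.274).

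In the Hoxd cluster Gm14396, a noncoding RNA gene between Hoxd10 and Hoxd9, had 3 and 7 reads in WT against 17 and 16 reads in ADPKD. Gm28793, which overlaps it on the other strand, had 5 to 12 reads per library. Mir615, in the Hoxc cluster, was at 0 reads in both WT libraries and at 3 and 1 reads in ADPKD, which is within what counting error alone allows. Gm15050, Hoxaas3, Hoxd3os1 and Haglr, noncoding genes on the strand opposite to their Hox neighbours, had differences between 0.06 and 0.11 and adjusted p of 0.723 to 0.851 in limma.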
